A study of Mus musculus with 2 samples.

Results

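The cells described here came from a sort of innate lymphocytes of the aged mouse gut and were chosen because they carried the chemokine gene Ccl5 or the granzyme gene Gzma and no captured CD3 or Trac transcript. They numbered 102 of 7177 cells, 56 of 3337 in replicate 1 and 46 of 3840 in replicate 2. A cell was selected if it held at least 2 unique molecular identifiers (UMIs, each standing for 1 captured transcript) of Ccl5 and Gzma together and 0 UMIs of Cd3d, Cd3e, Cd3g and Trac. It also had to carry the sample tag of its replicate, show at least 300 genes and have at most 25% mitochondrial UMIs. The cells were selected on the measured UMIs of those 6 genes, whose values below are descriptions with no test.

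The study captured single cells with the BD Rhapsody system from group 3 innate lymphoid cells (ILC3s) sorted out of the lamina propria of the small intestine. The mice were male C57BL/6 animals of 18 months, and all samples form 1 group with n = 2 replicates, carrying sample tag 6 and sample tag 12. The labels state no genotype or treatment and do not say whether the replicates were separate or pooled animals. The p-values therefore speak only for these 2 samples, and the spread between the samples may be technical. A low p-value does not by itself show that a difference held in both replicates, as the gene Fscn1 shows further on. With 1 age and 1 group, every comparison here is between kinds of cell within the same samples.

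Innate lymphoid cells are lymphocytes without rearranged antigen receptors. ILC3s secrete IL-22, which acts on the gut epithelium. ILC1s and natural killer (NK) cells use T-bet, encoded by Tbx21, and respond to IL-12 with interferon gamma, and NK cells also depend on Eomes and kill through perforin and granzymes. Natural cytotoxicity receptor positive ILC3s are known to be able to take on ILC1 features. Ccl5 encodes a chemokine that attracts T cells and other leukocytes, and Gzma a granule protease; both are also carried by memory and cytotoxic T cells, which is why cells with CD3 transcripts were set apart.

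In the text, pairs of values are those of replicate 1 and then replicate 2, and levels are in CPM, the UMIs of a gene scaled to 1000000 UMIs of all genes outside the rule. Fold values, apart from limits given as at least, are fitted log2 ratios put on a plain scale. The fit scales the sums by its own factors, so a fold or log2 ratio can differ from the ratio of 2 CPM values. The selected cells held a median of 1873 and 1769.5 UMIs, against 1789 and 1622 in the 1970 and 2413 other CD3-negative cells, so depth was similar. A further 154 and 90 cells passed the same Ccl5 and Gzma threshold but held at least 1 CD3 or Trac UMI, with medians of 2241.5 and 1853.5 UMIs. The replicates were separate libraries. They shared 10 cell barcodes among the cells of the study's own tags.

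The selected cells made up 1.68% of the kept cells in replicate 1 (exact 95% interval 1.27 to 2.17, counting error only) and 1.20% in replicate 2 (0.878 to 1.59), a mean of 1.44% ± 0.340 (SD, n = 2). Of all CD3-negative cells they were 2.76% and 1.87%. Of all cells past the Ccl5 and Gzma threshold, 26.7% and 33.8% were CD3-negative. The intervals of the 2 replicates overlap.

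Ccl5 was the commoner of the genes that chose the cells. In replicate 1, 27 cells held Ccl5 alone, 15 held Gzma alone and 14 held both. In replicate 2, 30 held Ccl5 alone, 7 Gzma alone and 9 both. The sum of both genes had a median of 3 UMIs in replicate 1 and 4 in replicate 2, with highest values of 66 and 20. Exactly 2 UMIs, just inside the threshold, were held by 25 and 14 selected cells, and exactly 1 UMI, just outside it, by 128 and 87 other CD3-negative cells (6.50% and 3.61% of these). Ccl5 lies on chromosome 11 (GRCm38, 83525778 to 83530518, minus strand) in the same stretch as Ccl3 (83647844 to 83649355) and Ccl4 (83662584 to 83664683), and Gzma lies on chromosome 13 (113093825 to 113100981, minus strand).

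**Figure D1:**
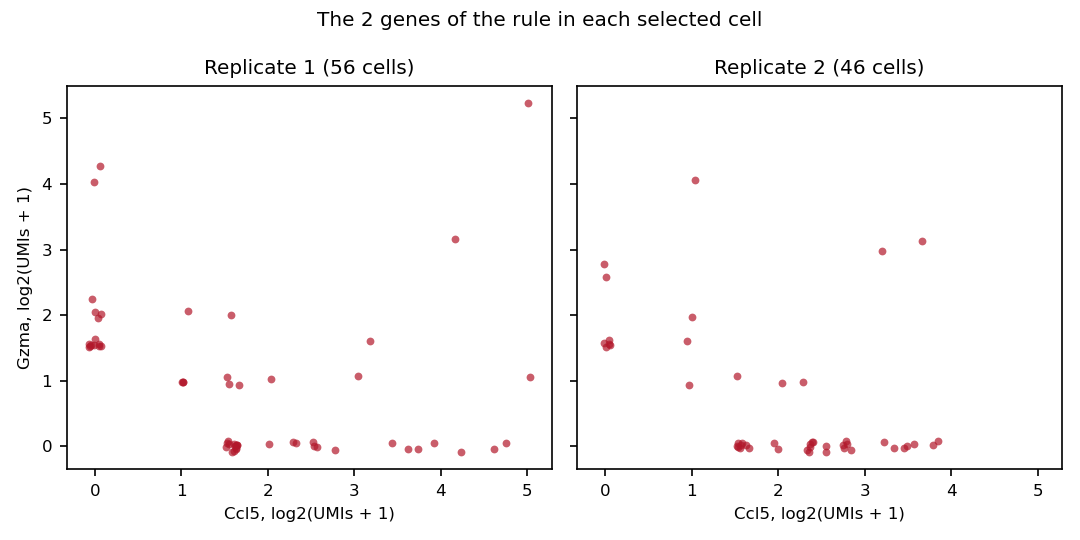
Ccl5 (x axis) and Gzma (y axis) in each selected cell of replicate 1 (56 cells, left) and replicate 2 (46 cells, right), as log2(UMIs + 1) with a small random offset so that equal values can be seen; each point is 1 cell. Most cells lie along 1 axis: 14 cells in replicate 1 and 9 in replicate 2 held both genes.

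A background for such low counts was looked for in cells marked by stromal transcripts. In replicate 1, 130 cells held at least 5 UMIs of 9 stromal and endothelial genes. Lymphocytes should not make the collagens of this list. The list also holds Pecam1, which was not lower in the selected cells (log2 ratio 0.78 ± 0.26 SE against other CD3-negative cells, adjusted p = 0.063). Pecam1 UMIs counted toward the 5. Of the 130 cells, 18 held a Ccl5 or Gzma UMI and 3 (2.31%, exact 95% interval 0.479 to 6.60) held at least 2, near the 2.76% of all CD3-negative cells. The same cells held an Il22 UMI in 60.8%, Fcer1g in 66.9%, Ncr1 in 24.6%, Xcl1 in 20.8%, Nkg7 in 17.7%, Tyrobp in 3.85%, Klrd1 in 0.769% and Il21r in 0%, with a median of 2110 UMIs. Replicate 2 had 10 such cells, 0 with Ccl5 or Gzma (exact 95% interval up to 30.8%). In these cells free transcripts, mixed cells and lymphocytes with stromal transcripts cannot be told apart. The part of free transcripts in cells with 2 UMIs was not tested, and values by UMI number are given further on.

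The name ILC1-like was checked against marker genes. Transcripts of ILC1s and NK cells were present: Xcl1 was found in 57.1% and 65.2% of the selected cells, Nkg7 in 58.9% and 69.6%, Il12rb2 in 39.3% and 52.2% and Klrd1 in 19.6% and 21.7%. The defining factors did not pass the test or were at 0. Tbx21 stood at 122 and 76.9 CPM in the selected cells and 78.6 and 87.6 CPM in other CD3-negative cells (log2 ratio 0.07 ± 0.35 SE, adjusted p = 0.95), and Eomes had 0 UMIs in all selected cells. Ncr1, the gene of the receptor NKp46 shared by NK cells, ILC1s and some ILC3s, was detected in 28.6% and 13.0% of selected and 27.3% and 17.0% of other CD3-negative cells and did not pass the test (log2 ratio -0.34 ± 0.28 SE, adjusted p = 0.63). ILC3 transcripts remained, with Kit in 33.9% and 47.8% and Il7r in 83.9% and 82.6% of selected cells. The filter on low counts left Eomes out of the test, so its 0 does not by itself set the selected cells apart. With Tbx21 and Ncr1 not called higher and Eomes at 0 but untested, the name ILC1-like is not used further. The cells are called by the rule that selected them.

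Against other CD3-negative cells, 143 of 9398 genes were higher (1.52%) and 294 lower (3.13%) at an adjusted p under 0.05. The test was edgeR's quasi-likelihood test on UMIs summed per replicate and kind of cell, with the replicate as a block, and the 6 genes of the rule were left out. A call does not ask for the same direction in both replicates: Fscn1 was called higher with log2 ratios of -3.36 and 7.29 within them. The higher genes included chemokines, granzymes, killer lectin-like receptors and the IL-12 receptor gene Il12rb2, and the lower ones Il22 and other ILC3 genes and stromal and immunoglobulin transcripts. Without the block, 16 genes were higher and 2 lower, and DESeq2 gave 165 higher and 113 lower, so the split between higher and lower genes differed between the tools and their scaling. The median gene stood at a log2 ratio of -0.21 in edgeR and -0.09 in DESeq2, the zero point against which small ratios are to be read.

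Chemokine ligand genes other than Ccl5 were among the largest differences. Ccl4, which encodes an inflammatory chemokine, was at 765 and 1403 CPM in selected cells against 26.4 and 63.0 CPM in other CD3-negative cells, 21.2-fold higher (log2 ratio 4.41 ± 0.19 SE, adjusted p = 5.6e-36). It was detected in 23.2% and 39.1% of selected and 1.88% and 2.74% of other cells. Ccl3, of the same chemokine family, was at 531 and 788 against 22.5 and 55.8 CPM, 14.8-fold higher (log2 ratio 3.89 ± 0.23 SE, adjusted p = 2.2e-25). Xcl1, a chemokine that draws cross-presenting dendritic cells, was at 1818 and 1576 against 371 and 370.1 CPM, 3.97-fold higher (log2 ratio 1.99 ± 0.18 SE, adjusted p = 5.1e-15). For all 3 genes the values of both replicates were higher in the selected cells. With every cell thinned to 1000 UMIs, Xcl1 was found in 50.9% and 61.4% of selected and 15.5% and 16.8% of other CD3-negative cells. Of the 6 chemokine ligand genes tested, these 3 were higher and 1 was lower: Cxcl2, which attracts neutrophils (log2 ratio -0.84 ± 0.25 SE, adjusted p = 0.034). The highest cell of each replicate gave 25% and 32.2% of the Ccl4 UMIs and 21.3% and 30.5% of the Ccl3 UMIs.

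Granule and killing genes were higher in 6 of 15 tested and lower in 0, with a median log2 ratio of 0.58 against -0.21 over all genes. Gzmb, the main granzyme of cytotoxic lymphocytes, was at 652 and 384 CPM against 24.3 and 35.5 CPM, 15.4-fold higher (log2 ratio 3.94 ± 0.25 SE, adjusted p = 1.3e-23), and was seen in 26.8% and 21.7% of selected cells. Gzmc, a granzyme of activated killer cells, was at 669.7 and 317 against 32.6 and 40.1 CPM, 12.0-fold higher (log2 ratio 3.58 ± 0.26 SE, adjusted p = 7.3e-21), with 41.6% and 42.4% of its UMIs in 1 cell of each replicate. Nkg7, a protein of cytotoxic granules, was at 896 and 711 against 150.5 and 131 CPM, 4.93-fold higher (log2 ratio 2.30 ± 0.20 SE, adjusted p = 1.1e-16). The pore protein gene Prf1 (87.0 and 76.9 against 23.0 and 13.5 CPM, log2 ratio 1.98 ± 0.49 SE, adjusted p = 0.0046) and Cst7, an inhibitor of granule cathepsins (log2 ratio 2.39 ± 0.45 SE, adjusted p = 7.3e-05), were also higher. Serpinb9, which protects cells against their own granzyme B, was at 1348 and 1951 against 923 and 1382 CPM and did not pass the test (log2 ratio 0.32 ± 0.18 SE, adjusted p = 0.43).

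Receptors of the killer lectin-like and NK families were higher in 6 of 14 tested and lower in 0. The CD94 chain gene Klrd1 pairs with the NKG2 chains encoded by Klrc1 and Klrc2, and all 3 were higher. Klrd1 was detected in 19.6% and 21.7% of selected and 1.12% and 1.24% of other cells, and was 11.4-fold higher in the fit (log2 ratio 3.51 ± 0.48 SE, adjusted p = 2.6e-08). Klrc1, the inhibitory NKG2A chain, was 6.61-fold higher (log2 ratio 2.73 ± 0.40 SE, adjusted p = 2.7e-07) and Klrc2, the activating NKG2C chain, 13.1-fold (log2 ratio 3.71 ± 0.55 SE, adjusted p = 2.1e-07). Klre1 (19.3-fold, adjusted p = 2.4e-05) and Klri2 (6.33-fold, adjusted p = 4.8e-10), which encode partner lectins of NK cells, were higher as well. Klrb1c, the NK1.1 antigen, was at 252 and 125 against 115 and 56.7 CPM (log2 ratio 0.94 ± 0.29 SE, adjusted p = 0.036). Among 20 signalling adaptors and kinases, Tyrobp, which encodes the DAP12 adaptor of activating NK receptors, was at 400.1 and 279 against 34.1 and 30.2 CPM, 9.04-fold higher (log2 ratio 3.18 ± 0.31 SE, adjusted p = 4.9e-14). Fcer1g, the other ITAM adaptor of innate lymphocytes, was present in 91.1% and 80.4% of selected and 87.4% and 77.2% of other cells without passing the test (log2 ratio -0.02 ± 0.18 SE, adjusted p = 0.97). The adaptor gene Sh2d2a (log2 ratio 1.05 ± 0.23 SE, adjusted p = 0.0011) was higher, and the phospholipase gene Plcg2 was 2.01-fold lower (adjusted p = 0.03).

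**Figure D2:**
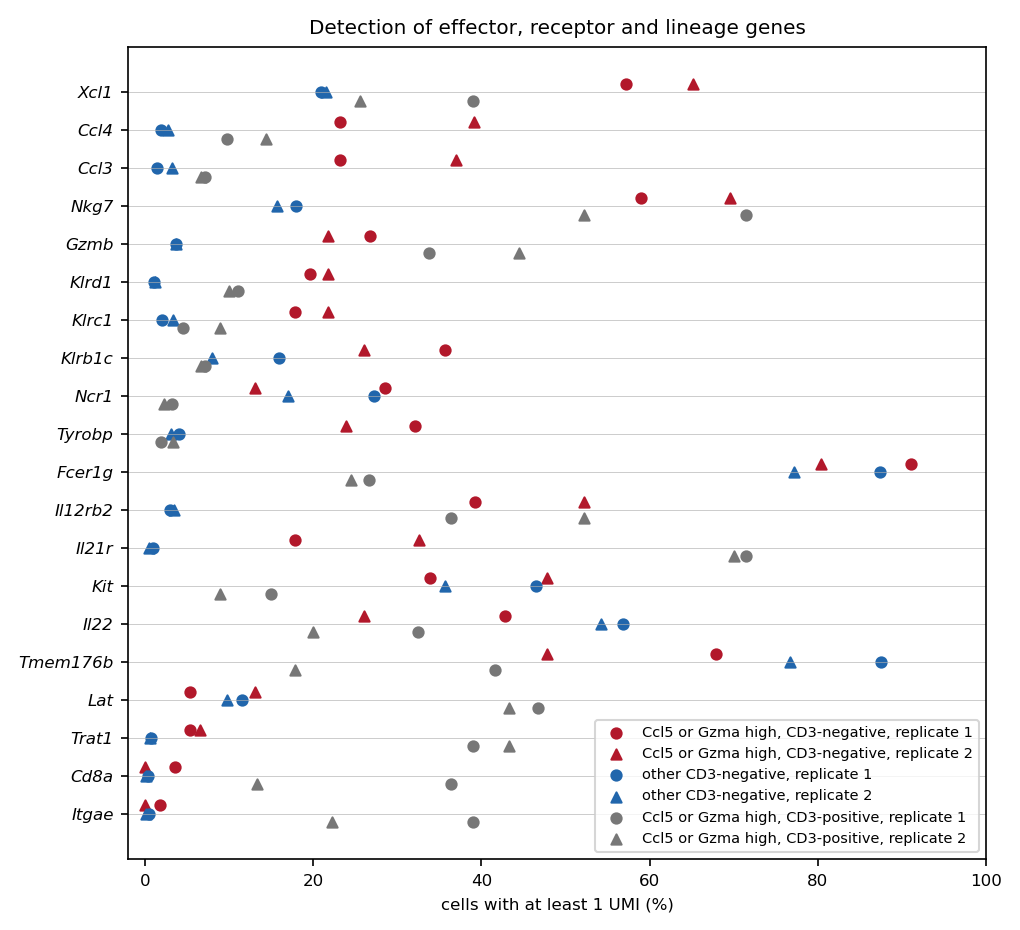
Share of cells with at least 1 UMI (x axis, %) for 20 genes (y axis) in the selected cells (red), other CD3-negative cells (blue) and CD3-positive cells with the same Ccl5 and Gzma threshold (grey); circles are replicate 1 and triangles replicate 2. Red points lie to the right of the blue ones from Xcl1 to Klrb1c, for Tyrobp and for Il12rb2 and Il21r, and to their left for Il22 and Tmem176b.

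Of 20 cytokine receptor genes tested, 2 were higher and 4 lower (median log2 ratio -0.30), and of 18 chemokine receptor and homing genes 3 were higher and 1 lower (median log2 ratio -0.05). Il12rb2, the inducible chain of the IL-12 receptor, was at 383 and 404 CPM against 20.4 and 36.9 CPM, 12-fold higher (log2 ratio 3.59 ± 0.25 SE, adjusted p = 2.6e-21). The chemokine receptor gene Ccr2 was 4.74-fold higher (log2 ratio 2.24 ± 0.42 SE, adjusted p = 5.6e-05). Il21r, the IL-21 receptor, was found in 17.9% and 32.6% of selected and 0.914% and 0.456% of other CD3-negative cells, 44.2-fold higher in the fit. It marked these cells in an earlier clustering of the same data, so its difference is a description. Il7r (1374 and 1211 against 2013 and 2380.1 CPM, log2 ratio -0.95 ± 0.19 SE, adjusted p = 0.00017), Il1r1 (log2 ratio -1.74 ± 0.32 SE, adjusted p = 5.8e-05) and also Il23r and Il2ra were the lower ones. The IL-2 and IL-15 receptor chain Il2rb was at 2261 and 2709.9 against 1633 and 2321 CPM and did not pass the test (log2 ratio 0.14 ± 0.18 SE, adjusted p = 0.8). Other genes among the largest ratios were Ms4a4b (13.6-fold, log2 ratio 3.77 ± 0.29 SE, adjusted p = 2.3e-19), Plac8 (9.02-fold, log2 ratio 3.17 ± 0.22 SE, adjusted p = 3.1e-22) and the immunoglobulin-like receptor gene Lilr4b (6.43-fold, log2 ratio 2.68 ± 0.23 SE, adjusted p = 6.4e-17).

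Ifng, the signature cytokine gene of type 1 lymphocytes, was at 148 and 183 CPM in the selected cells and 24.3 and 32.3 CPM in the others, 5.04-fold higher (log2 ratio 2.33 ± 0.37 SE, adjusted p = 1.5e-06), though detected in 17.9% and 15.2% of selected cells. Over the 16 type 1 innate genes, 15 were tested, and Ifng, Il12rb2, Klrb1c, Klrd1 and Xcl1 were higher and none lower, with a median log2 ratio of 0.19. Of the 14 NK cell genes, 6 were tested, and Gzmb, Klre1, Klri2 and Prf1 were higher. Of the rest, 1 was not found in the tables and 7 were under the filter on low counts.

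ILC3 genes were lower in 9 of 14 tested and higher in 1, with a median log2 ratio of -1.12. Il22 was at 1113 and 557 CPM in selected and 2449 and 2591 CPM in other CD3-negative cells, 3.58-fold lower (log2 ratio -1.84 ± 0.23 SE, adjusted p = 2.3e-09), and was detected in 42.9% and 26.1% against 56.9% and 54.2% of cells. The membrane protein genes Tmem176a (log2 ratio -1.47 ± 0.22 SE, adjusted p = 2.9e-07) and Tmem176b (log2 ratio -1.28 ± 0.21 SE, adjusted p = 5.5e-06), both high in ILC3s, and Ncoa7 (log2 ratio -2.30 ± 0.36 SE, adjusted p = 1.3e-06) were lower too. Kit was at 339 and 327 against 407 and 315 CPM and did not pass the test (log2 ratio -0.32 ± 0.21 SE, adjusted p = 0.53). The gene that was higher was Ahr, the aryl hydrocarbon receptor (log2 ratio 1.44 ± 0.39 SE, adjusted p = 0.013). Among 12 genes of lymphoid tissue inducer cells, Tnfsf11, which encodes RANKL, was lower (287 and 125 against 684 and 509 CPM, log2 ratio -1.75 ± 0.25 SE, adjusted p = 9.9e-08), as was Il17f (log2 ratio -3.65 ± 0.94 SE, adjusted p = 0.0077). Csf2, which encodes GM-CSF, fell by 2.35 on the log2 scale (SE 0.33, adjusted p = 6.3e-08), from 196 and 471 CPM in other CD3-negative cells to 34.8 and 115 CPM. Of 8 tested ILC2 genes 1 was lower, Hes1 (log2 ratio -1.85 ± 0.58 SE, adjusted p = 0.043).

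**Figure D3:**
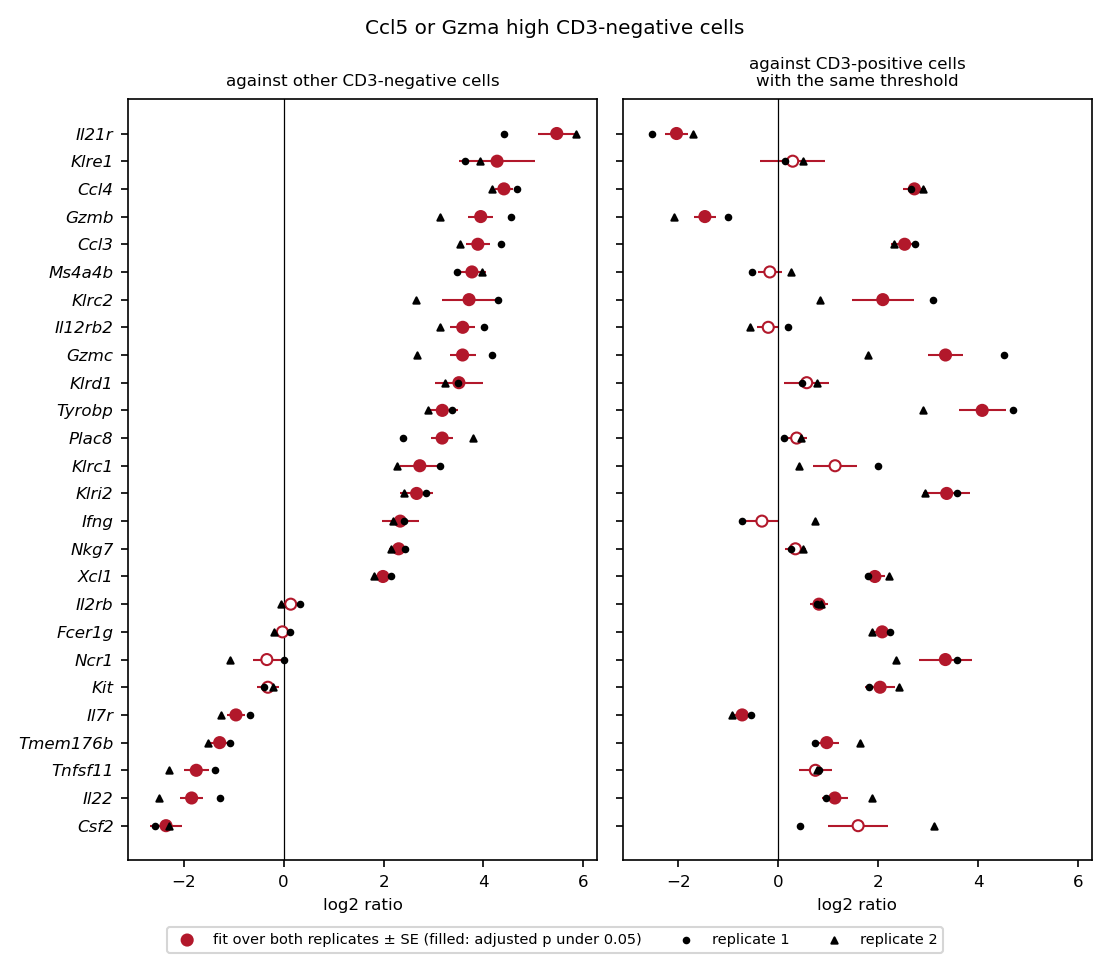
Log2 ratios of the selected cells against other CD3-negative cells (left) and against CD3-positive cells with the same Ccl5 and Gzma threshold (right) for 26 genes; large circles are the fit over both replicates with its SE (filled where the adjusted p was under 0.05), small circles and triangles are the ratios within replicate 1 and replicate 2. Chemokine, granzyme and killer lectin-like genes lie right of 0 on the left panel, while Il12rb2, Nkg7 and Ms4a4b lie near 0 on the right panel.

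Of 30 tested transcription factor genes 4 were higher and 5 lower. Hopx, seen in memory and effector lymphocytes, was 4.68-fold higher (log2 ratio 2.23 ± 0.36 SE, adjusted p = 3e-06). Runx3 (391 and 356 against 624 and 989 CPM, log2 ratio -1.27 ± 0.23 SE, adjusted p = 2.5e-05) and Tcf7, which encodes TCF-1 (95.7 and 144 against 333 and 283 CPM, log2 ratio -1.57 ± 0.29 SE, adjusted p = 3.2e-05), were lower. The costimulatory genes Cd28 (6.45-fold, adjusted p = 3.8e-05) and Tnfrsf9 (2.94-fold, adjusted p = 0.019) were higher, and Icos was lower (log2 ratio -1.06 ± 0.20 SE, adjusted p = 9.1e-05). Immediate early and heat shock genes, which rise with activation or tissue handling, were lower in 9 of 19 tested, among them Nr4a1 (765 and 327 against 1573 and 1458 CPM, log2 ratio -1.73 ± 0.22 SE, adjusted p = 2.9e-09), Egr1 (log2 ratio -1.64 ± 0.30 SE, adjusted p = 2.9e-05) and Hspa1a (log2 ratio -2.55 ± 0.43 SE, adjusted p = 6.3e-06), and higher in 2, Nr4a2 (log2 ratio 1.52 ± 0.24 SE, adjusted p = 1.8e-06) and Dusp2. The retention gene Cd69 was also lower (log2 ratio -0.82 ± 0.22 SE, adjusted p = 0.0095). Of 18 class I and interferon response genes 1 was higher, Gbp2 (log2 ratio 1.25 ± 0.34 SE, adjusted p = 0.014).

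Several calls rested on very few cells. The class II genes Cd74 (log2 ratio 1.16 ± 0.28 SE, adjusted p = 0.0041) and H2-Aa (log2 ratio 1.11 ± 0.33 SE, adjusted p = 0.027) were called higher, and so was Ccr7 (log2 ratio 2.55 ± 0.65 SE, adjusted p = 0.0073), a homing receptor gene of dendritic cells and naive lymphocytes. In replicate 2, 1 cell of 8239 UMIs held 85 H2-Aa and 125 Cd74 UMIs together with 45 UMIs of Il1b and 31 of Fscn1, genes known from activated dendritic cells, and 11 of Ccl5. It gave 87.6% of the H2-Aa, 87.4% of the Cd74 and 100% of the Ccr7 UMIs of its group. Without cells of over 3 times their replicate's median UMI count, the log2 ratios were -1.10 for H2-Aa, -0.31 for Cd74 and -7.25 for Ccr7, and within replicate 1 they were -1.23, -0.50 and -3.20. Cell cycle genes were higher in 6 of 8 tested, but 75% and 77.8% of the Mki67 UMIs came from 1 cell per replicate, and Mki67 was seen in 4 and 3 selected cells (log2 ratio 2.38 ± 0.47 SE, adjusted p = 0.00018). Hmgb2, more widely detected at 58.9% and 67.4% of selected against 41.5% and 40.9% of other cells, was 1.67-fold higher (log2 ratio 0.74 ± 0.20 SE, adjusted p = 0.012).

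Transcripts of other cell types differed in direction by list. Stromal and endothelial genes summed to 704.5 and 183 CPM in selected cells against 5378 and 248 CPM in other CD3-negative cells, and 6 of 8 tested were lower, with Col1a1 at 78.3 and 0 against 1168 and 16.9 CPM. At least 1 UMI of these genes was held by 66.1% and 32.6% of selected and 52.7% and 19.4% of other CD3-negative cells. In replicate 2, 8 of the 9 genes were at 0 UMIs in the selected cells. Pecam1, a gene of this list, had log2 ratios of 1.16 and 0.32 within the replicates, and its part in these shares was not tested. The highest cell held 7 UMIs of the list among the selected and 2597 among the other cells of replicate 1. The 10 lowest ratios named by rule were all of genes at 0 UMIs in the selected cells. Counted against a floor of 3 UMIs over both replicates, the complement gene C3, at 207 and 8.69 CPM in the other cells, was at least 7.62-fold lower, Fbln1 at least 6.24-fold, Clec3b at least 5.45-fold and Col6a2 at least 5.31-fold. These limits rest on replicate 1: in replicate 2 the other cells stood under the floor of 3 UMIs (28.8 CPM) for all 10 genes except Gria3, so without replicate 1 they give no limit. The other 6 (C1ra, Bmp4, Gria3, Igfbp5, Fmo2 and Htra3) were at least 3.54-, 2.92-, 2.85-, 2.76-, 2.63- and 2.47-fold lower. B and plasma cell genes were lower in 5 of 8 tested, led by Igkc and Igha, and a single other CD3-negative cell held 5818 UMIs of these genes in replicate 1 and 5501 in replicate 2. Epithelial genes summed to 26.1 and 38.4 CPM in selected against 11.6 and 9.41 CPM in other CD3-negative cells, and myeloid and mast cell genes to 357 and 884 against 690 and 348 CPM, with 73 UMIs in 1 selected cell of replicate 2. The part of these transcripts in the results above was not tested. Without any cell holding 2 or more UMIs of the stromal and endothelial, B, myeloid or epithelial genes, 16 and 34 selected cells were left. Pecam1 counted among these genes. Of 6503 genes tested, 77 were higher and 175 lower.

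The selected cells were not alike. In replicate 1 the detection of several genes differed with the number of Ccl5 and Gzma UMIs. Tyrobp was found in 8% of cells with 2 UMIs, 41.7% with 3 or 4 and 57.9% with 5 or more, against 3.12% of CD3-negative cells with 1 UMI and 4.13% with 0. Nkg7 went from 32% at 2 UMIs to 89.5% at 5 or more, and Ccl4 from 0% to 42.1%. Il22 went the other way, from 60% to 21.1%. Other genes showed no such order: Gzmb was found in 24%, 8.33% and 42.1% of the 3 bins, Klrk1 in 28%, 50% and 26.3% and Klrc1 in 4%, 41.7% and 21.1%. The 25 cells of replicate 1 just inside the threshold lay closer to the other CD3-negative cells in Tyrobp, Nkg7, Ccl4 and Il22 than the cells with 5 or more UMIs did. In replicate 2 the 14 cells with 2 UMIs already carried Nkg7 in 64.3% and Il22 in 28.6%, and those with 5 or more carried them in 65% and 20%. These shares are descriptions, since the genes were chosen after their values were seen and the bins hold 12 to 25 selected cells. With a threshold of 4 UMIs, 24 and 28 cells were selected, and 131 genes were higher and 328 lower.

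**Figure D4:**
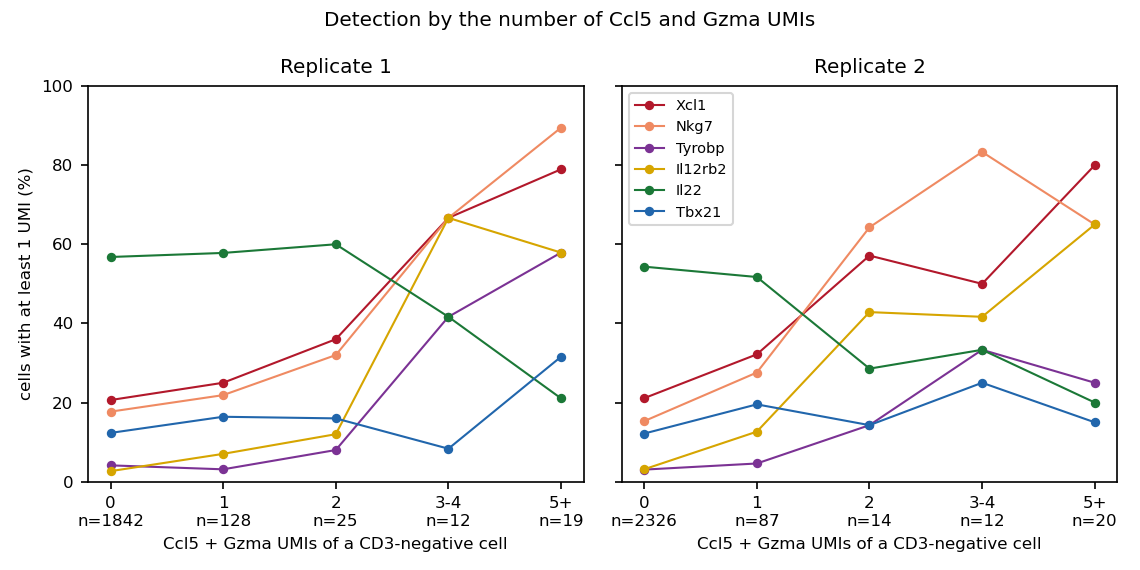
Share of CD3-negative cells with at least 1 UMI (y axis, %) of 6 genes by the number of Ccl5 and Gzma UMIs in the cell (x axis, with the number of cells n), in replicate 1 (left) and replicate 2 (right). In replicate 1 the cells with 2 UMIs lie close to those with 0 or 1 for Il22, Tyrobp and Tbx21. For Xcl1, Nkg7 and Il12rb2 they lie above them (36%, 32% and 12% against 20.6%, 17.7% and 2.66% at 0 UMIs). In replicate 2 Nkg7, Xcl1 and Il12rb2 are higher at 2 UMIs by a wider gap. Tbx21 shows no steady order, with 8.33% at 3 or 4 UMIs and 31.6% at 5 or more in replicate 1.

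Effector and receptor genes met in the same cells. Of 9 such genes (Xcl1, Tyrobp, Klrd1, Klrb1c, Klrc1, Ccl4, Ccl3, Nkg7 and Il12rb2), at least 5 were detected in 17 of 56 selected cells (30.4%) in replicate 1 and 10 of 46 (21.7%) in replicate 2. The same held for 0.812% and 0.953% of the other CD3-negative cells and 3.9% and 8.89% of the CD3-positive cells past the threshold. None of the 9 was found in 8 and 2 selected cells. The genes were picked after their values were seen, so these shares describe the cells and were not tested.

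**Figure D5:**
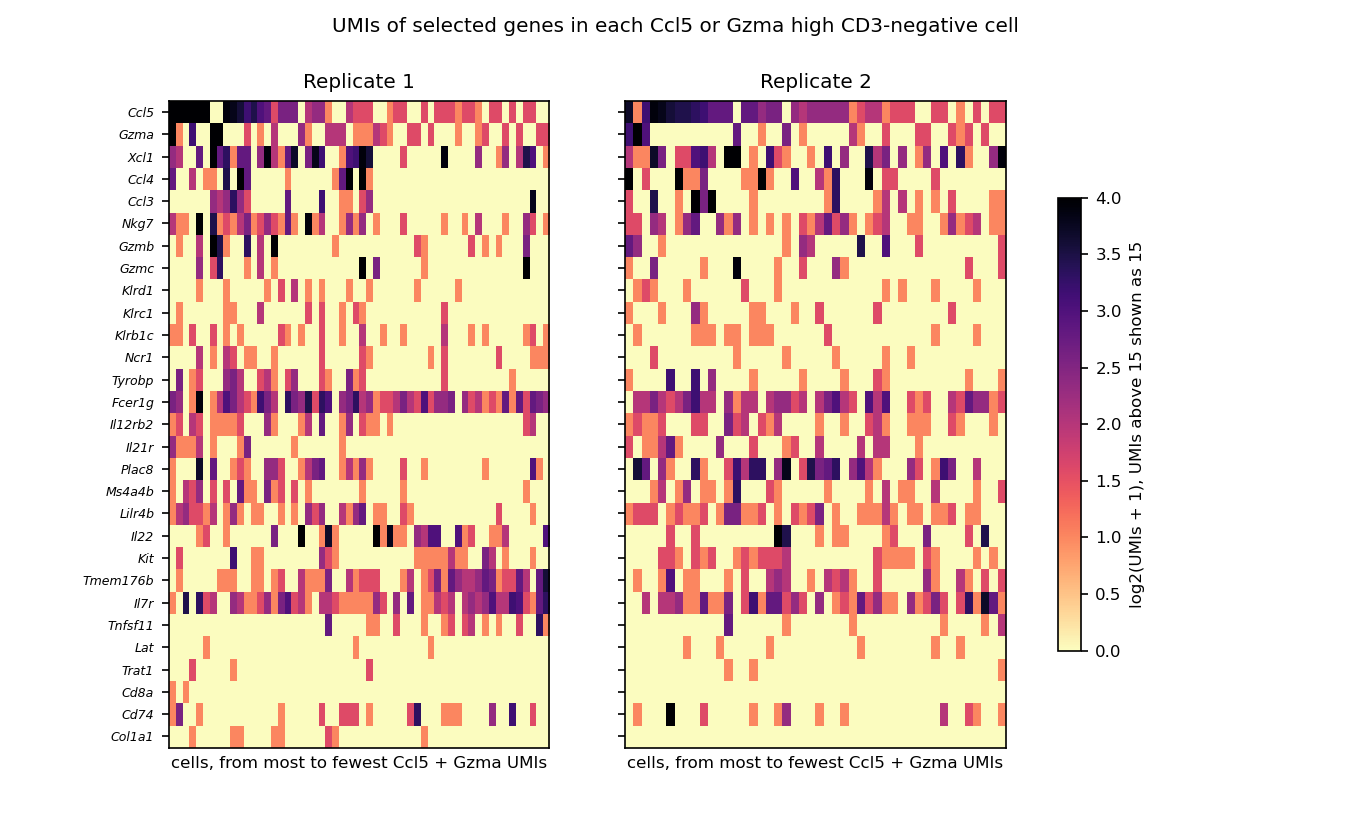
UMIs of 29 genes (rows) in every selected cell (columns, from most to fewest Ccl5 and Gzma UMIs), replicate 1 left and replicate 2 right; colour gives log2(UMIs + 1), with values above 15 UMIs shown as 15. Nkg7, Xcl1, Plac8 and Lilr4b fill the left of the replicate 1 panel, Il22 and Tmem176b its right, and Fcer1g and Il7r run across both panels.

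Cells with and without Gzma could be compared only as values, because 16 cells of replicate 2 with Gzma were under the minimum of 20 cells per sum. Gzmb was detected in 31.0% of cells with Gzma and 22.2% without in replicate 1, and in 43.8% and 10% in replicate 2. Ms4a4b showed the reverse, with 24.1% against 37.0% and 12.5% against 53.3%. Tbx21 was found in 13.8% against 25.9% and 0% against 26.7%. Both replicates had the same direction for these 3 genes, which were picked from a longer set after their values were seen. The same held for other genes of that set, such as Xcl1, Nkg7 and Il12rb2, and did not hold for others, such as Ncr1 and Ccl4. A shared direction is thus not particular to the genes named. For Kit (31.0% against 37.0%, and 31.2% against 56.7%) the gap was wider in replicate 2.

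Il21r was held by 10 and 15 selected cells. In these, Tyrobp was found in 50% and 33.3% and Fcer1g in 90% and 80%, against 28.3% and 19.4% and 91.3% and 80.6% in cells without. Among T cell genes, Lat was found in 0% and 13.3% of cells with Il21r and 6.52% and 12.9% of those without, Cd8a in 20% and 0% against 0% and 0%, and Cd247 in 10% and 0% against 2.17% and 0%. Lilr4b was seen in 90% and 86.7% of cells with Il21r against 39.1% and 64.5% of those without. With all CD3-negative cells holding Il21r left out, an alternative added after seeing the data, 65 genes were higher and 174 lower against other CD3-negative cells.

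The second comparison set the selected cells against the 154 and 90 cells that passed the same Ccl5 and Gzma threshold but held a CD3 or Trac UMI. It asked how far the CD3-negative cells differ from T cells with the same effector genes. Of 9398 genes 91 were higher (0.968%) and 100 lower (1.06%) in the CD3-negative cells at an adjusted p under 0.05, and without the block 7 were higher and 8 lower. Fitted with only the 2 groups compared, 30 were higher and 32 lower of 2625 genes tested. All 62 were called in the same direction in the main fit. CD3 genes chose both groups, and 12 of 154 and 11 of 90 CD3-positive cells held a single T cell UMI.

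T cell genes outside the rule were lower in 14 of 20 tested and higher in 0, with a median log2 ratio of -3.19 against -0.15 over all genes. The groups were split by CD3 and Trac UMIs, so the direction of T cell genes is tied to the selection. Their p-values are no independent support for the kind of the selected cells. Cd8a was at 17.4 and 0 CPM in the CD3-negative and 531 and 175 CPM in the CD3-positive cells, 42.5-fold lower (log2 ratio -5.41 ± 0.55 SE, adjusted p = 2.3e-12). The T cell receptor adaptor genes Lat (26.1 and 57.7 against 336 and 315 CPM, log2 ratio -3.10 ± 0.39 SE, adjusted p = 5.9e-09) and Trat1 (43.5 and 28.8 against 267 and 542 CPM, log2 ratio -3.44 ± 0.42 SE, adjusted p = 1.8e-09) were lower. So were Cd40lg, the CD40 ligand (log2 ratio -3.69 ± 0.56 SE, adjusted p = 9.1e-07), the gamma chain constant gene Tcrg-C2 (log2 ratio -5.17 ± 0.58 SE, adjusted p = 6.4e-11) and Cd247, which encodes the CD3 zeta chain (log2 ratio -4.28 ± 0.68 SE, adjusted p = 2.7e-06). Itgae, the CD103 integrin chain of epithelial T cells, was at 8.70 and 0 against 295 and 157 CPM (log2 ratio -5.73 ± 0.80 SE, adjusted p = 1e-07). Slamf1 had 0 UMIs in the CD3-negative cells and was at least 9.62-fold lower. Cd4 was 12.1-fold lower (log2 ratio -3.60 ± 0.49 SE, adjusted p = 6.6e-08), and the checkpoint genes Ctla4 (log2 ratio -1.97 ± 0.28 SE, adjusted p = 1.4e-07) and Tigit (log2 ratio -2.66 ± 0.70 SE, adjusted p = 0.017) were lower with Cd28 (log2 ratio -2.24 ± 0.33 SE, adjusted p = 3.8e-07).

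T cell receptor constant genes were not absent from the selected cells. Trbc1 was found in 60.7% and 71.7% of them, 47.1% and 44.7% of other CD3-negative cells and 50.6% and 36.7% of CD3-positive cells, and was higher than in other CD3-negative cells (log2 ratio 0.64 ± 0.20 SE, adjusted p = 0.036). Trbc2 was found in 46.4% and 47.8%, 43.6% and 42.8% and 80.5% and 80% of the 3 groups. Innate lymphoid cells are known to transcribe unrearranged T cell receptor loci. Of 11 T cell genes outside the constant beta and gamma chains, at least 1 was found in 28.6% and 23.9% of selected cells, 19.6% and 17.6% of other CD3-negative cells and 90.9% and 83.3% of CD3-positive cells. The 11 genes were chosen after their values were seen. Against other CD3-negative cells, Cd28, Cd8b1 and Trat1 were higher (43.5 and 28.8 against 4.14 and 3.86 CPM for Trat1), and the gamma constant gene Tcrg-C1 was lower (log2 ratio -1.20 ± 0.30 SE, adjusted p = 0.0058). The part of T cells with no CD3 UMI captured was not tested. When Trbc1, Trbc2, Trdc, Cd247 and the gamma constant genes also had to be 0, only 5 and 5 cells were left. Of 6711 genes tested, 46 were higher and 94 lower, with the median gene at a log2 ratio of -1.30. Among these 10 cells the ratios of Ccl4 and Klrc1 were below 0 and not called, while Xcl1, Klrd1, Gzmc, Ms4a4b and Tyrobp were still called higher. Ccr7, Cd74 and H2-Aa kept their call as well, so the cell of 8239 UMIs described above was among the 10. That cell held 8 Tyrobp UMIs and 0 of Xcl1, Klrd1, Gzmc and Ms4a4b. All 5 cells of replicate 2 held 14607 UMIs outside the rule genes. The part of that cell in the Tyrobp call was not tested.

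Against the CD3-positive cells, 5 of 15 tested type 1 innate genes were higher and 1 lower (Itga1), and of 6 NK cell genes 1 was higher (Klri2) and 1 lower (Gzmb). Of 14 ILC3 genes 4 were higher and 1 lower, and of 6 chemokine ligand genes 3 were higher and 0 lower. Tyrobp was at 400.1 and 279 against 12.8 and 35.0 CPM, 17.0-fold higher (log2 ratio 4.08 ± 0.47 SE, adjusted p = 1.1e-10), and Fcer1g at 1879 and 1239.6 against 364 and 326 CPM, 4.23-fold higher (log2 ratio 2.08 ± 0.21 SE, adjusted p = 2.3e-12). Ncr1 was at 217 and 67.3 against 15.4 and 11.7 CPM, 10.2-fold higher; like Il21r it marked these cells in an earlier clustering, so its difference is a description. The receptor genes Klrb1b (5.04-fold, log2 ratio 2.33 ± 0.23 SE, adjusted p = 4.6e-13), Klrb1c (4.76-fold, log2 ratio 2.25 ± 0.40 SE, adjusted p = 4.4e-05) and Klrk1, the NKG2D receptor (2.47-fold, log2 ratio 1.30 ± 0.30 SE, adjusted p = 0.0035), were higher, as was Klri2 (10.4-fold, adjusted p = 9.8e-08). Kit, the stem cell factor receptor of ILC3s, was 4.11-fold higher (log2 ratio 2.04 ± 0.31 SE, adjusted p = 6.7e-07), and Il22 was 2.20-fold higher (log2 ratio 1.13 ± 0.26 SE, adjusted p = 0.003). Among chemokines Ccl4 (110.3 and 181 CPM in the CD3-positive cells, 6.62-fold, log2 ratio 2.73 ± 0.22 SE, adjusted p = 6.5e-17), Ccl3 (5.78-fold, log2 ratio 2.53 ± 0.28 SE, adjusted p = 3.5e-11) and Xcl1 (3.82-fold, log2 ratio 1.94 ± 0.20 SE, adjusted p = 5e-12) were higher in the CD3-negative cells.

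Of 15 granule and killing genes tested, 3 were higher, 1 was lower and 11 had no call, with a median log2 ratio of -0.04 against -0.15 over all genes. Gzmc was 10.2-fold higher in the CD3-negative cells (log2 ratio 3.35 ± 0.35 SE, adjusted p = 3.1e-12), and so were the protease inhibitor genes Serpinb9 (2.95-fold, log2 ratio 1.56 ± 0.20 SE, adjusted p = 1e-08) and Serpinb6b (2.24-fold, log2 ratio 1.16 ± 0.23 SE, adjusted p = 0.00026). Gzmb was 2.77-fold lower, at 652 and 384 against 1203 and 1567 CPM (log2 ratio -1.47 ± 0.22 SE, adjusted p = 3.8e-07). Il21r was 4.10-fold lower, detected in 17.9% and 32.6% of CD3-negative and 71.4% and 70% of CD3-positive cells. Several genes that were higher than in other CD3-negative cells did not pass the test against the CD3-positive cells: Il12rb2 (-0.20 ± 0.22), Nkg7 (0.34 ± 0.20), Ms4a4b (-0.17 ± 0.24), Plac8 (0.37 ± 0.21) and Lilr4b (-0.16 ± 0.22), as log2 ratio ± SE. The 2 comparisons share the selected cells, so their values are side by side and not independent. Among transcription factors, Ikzf2, which encodes Helios (log2 ratio 1.58 ± 0.25 SE, adjusted p = 2.3e-06), and Irf8 (log2 ratio 2.22 ± 0.41 SE, adjusted p = 6.5e-05) were higher, and Bcl11b, a T lineage factor (log2 ratio -2.25 ± 0.37 SE, adjusted p = 6.7e-06), and Tcf7 (log2 ratio -1.25 ± 0.32 SE, adjusted p = 0.013) were lower. The class II genes Cd74, H2-Aa, H2-Ab1 and H2-Eb1 were called higher here too, with 80.7% to 100% of their replicate 2 UMIs in the single cell described above.

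The calls depend on taking out the difference between replicates. Leaving aside Il21r and Ncr1, of the 78 named genes called against other CD3-negative cells, 12 kept the call without the block (Ccl3, Cd28, Gzmb, Gzmc, Il12rb2, Klrd1, Klri2, Lilr4b, Ms4a4b, Nkg7, Plac8 and Xcl1), and 4 kept it under every alternative that gave a value (Gzmc, Klrd1, Ms4a4b and Xcl1). Of 55 called against the CD3-positive cells, 9 kept it without the block, and Trat1, Lat and Ctla4 kept it throughout. Each replicate is the same sample in both arms of a comparison, which is why it is a block.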

How the data were processed

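Single-cell transcripts of ILC3s from aged mouse small intestine were measured in 2 libraries. The deposited values are UMI counts per cell and gene, which the authors obtained, per the file headers, from version 1.8 of the BD WTA Multiplex Rhapsody Analysis Pipeline (GENCODE M19 on GRCm38) and left error-corrected and unscaled; the submitters' processing notes also name HISAT2 2.0.5, Bowtie2, mm10 and GRCm38.p6. Cells of the own tag were used (3427 and 3954, with 7011649 and 6845914 UMIs); cells of other tags (10666 and 10916), multiplets (572 and 987) and undetermined cells (1128 and 674) were not. The cell filter left out 90 and 114 cells. Doublets were not called beyond the tag multiplets. A gene in 1 table only was read as 0 in the other. Positions of genes are those of GENCODE M21 (GRCm38), found by symbol.

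UMI counts were summed per replicate over 4 kinds of cell (selected, other CD3-negative, and CD3-positive past and below the threshold), without the 6 rule genes. edgeR 4.0.16 (R 4.3.3) used TMM, filterByExpr and the replicate as a block, with Benjamini-Hochberg adjustment over 9398 genes (3 residual degrees of freedom, common dispersion 0.00981). Same-numbered sums are the same sample, which is the pairing. SEs were derived from the ratio and its F statistic. Single-replicate ratios are differences of log2 CPM with a prior count of 2. DESeq2 1.42.0, no filter, no block, other thresholds, thinning, stricter cell filters and leaving out cells or replicates were the alternatives. On simulated data with known changes, 34 of 48 genes at a log2 change of 2 and 14 of 43 at -2 were recovered. The simulated sums used a single fixed dispersion for all genes and no UMIs concentrated in single cells. They do not show how the test behaves for genes carried by few cells. Smaller changes and unchanged genes were also simulated, with counts not reported here. The test within the selected cells by Gzma was not run. Some named genes are counted but not reported here.

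The members and gene lists were chosen with earlier results of these data known. Named genes were the 10 highest and 10 lowest ratios (6 and 6 in the second comparison) past 0.05 with the same direction in both replicates and at least 20 UMIs in the higher group, leaving out mitochondrial, ribosomal, antigen receptor segment and unnamed genes, plus up to 4 per list of 23 lists (315 genes, 314 found) with the smallest adjusted p; Tbx21, Eomes, Ahr, Trbc1 and Trbc2 and genes of cell subsets were added after their values were seen. Lists not counted in the report gave these counts: epithelial 0 of 1 in both comparisons, myeloid 1 higher and 1 lower of 9 against other CD3-negative cells and 0 against CD3-positive cells. Intervals cover counting error only.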

Additional observations from a re-analysis of the deposited data

How the results depend on the processing

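Sums of 2 replicates limit every call, and genes at 0 UMIs in the selected cells have fitted ratios that depend on the prior count. Against other CD3-negative cells, leaving out the block gave 16 genes higher and 2 lower in place of 143 and 294. Fitting only the groups compared gave 82 and 174 of 8987 genes tested, and thinned cells 77 and 149 of 7449. A threshold of 1 UMI gave 63 and 19 of 9466, and further T cell genes at 0 gave 46 and 94 of 6711. Leaving out cells with other cell type markers gave 77 and 175 of 6503. Leaving out cells with Il21r, added after seeing the data, gave 65 and 174 of 9241. DESeq2 gave 113 lower. Against CD3-positive cells, no block gave 7 and 8 in place of 91 and 100. Only the groups compared gave 30 and 32 of 2625 genes tested, all 62 also called in the same direction in the main fit. Thinned cells gave 53 and 55 of 7449. A threshold of 4 UMIs gave 52 and 61 of 9072, and one of 1 UMI 239 and 171 of 9466. Further T cell genes at 0 gave 45 and 96 of 6711. The share of members, the selected cells, was 1.44% of the kept cells and over the same cells became 0.14% with further T cell genes at 0, 0.724% at 4 UMIs, 4.49% at 1 UMI and 1.09% without cells with Il21r, and was 1.20% to 1.68% in single replicates. The cause of these changes was not tested, except that fewer genes or cells enter several of the fits.

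Ratios of single genes that changed sign were, against other CD3-negative cells at a threshold of 1 UMI: C1ra 0.61, C3 0.72, Clec3b 0.59, Col1a1 0.93, Col1a2 0.88, Col3a1 0.95, Col6a2 0.081, Fbln1 0.81, Hes1 0.012, Hspa1a 0.43, Htra3 0.92 and Sparc 0.76 on the log2 scale. With further T cell genes at 0, where 5 and 5 cells remain, they were Ccl3 -0.058, Ccl4 -8.82, Ccr2 -7.57, Cxcl2 0.43, Hmgb2 -0.11, Klrc1 -6.49, Klre1 -2.53, Sh2d2a -0.40, Tnfrsf9 -8.03 and Trat1 -5.07. The median gene stood at -1.30 in that setting, and Ccl3, Cxcl2, Hmgb2 and Sh2d2a stood above it. Without high-UMI cells the ratios that changed sign were Ccr7 -7.25, Cd74 -0.31 and H2-Aa -1.10. Without cells with Il21r they were Ccr7 -7.31, Cd74 -0.62 and H2-Aa -1.07. Without cells with other cell type markers H2-Aa was at -0.79. Genes that a setting itself holds at or near 0 were given no value there. In single replicates Ccr7 ranged from -3.20 to 3.29, Cd74 from -0.50 to 2.09 and H2-Aa from -1.23 to 2.29.

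Against CD3-positive cells, a threshold of 1 UMI gave Col1a1 0.75, Col3a1 0.85, Dcn 0.89, H2-Ab1 -0.074, Igkc 0.92 and Sparc 0.53, and one of 4 UMIs Col1a1 0.37. Further T cell genes at 0 gave Ccl3 -0.38, Ccl4 -10.14, Ikzf2 -0.33, Il2rb -0.83 and Klrk1 -1.01. The median gene stood at -1.28 there, and all of these except Ccl4 stood above it. Leaving out cells with Il21r gave H2-Eb1 -1.15. In single replicates Col1a1 ranged from -2.92 to 0, Sparc from -3.57 to 0, Egr1 from -1.55 to 0.25, H2-Aa from -0.47 to 5.58 and H2-Eb1 from -1.37 to 8.73. Of the named genes called against other CD3-negative cells, 74 of 78 kept their call under the stricter cell filter, 69 of 78 at a threshold of 4 UMIs, 66 of 77 without high-UMI cells and 57 of 78 with DESeq2.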
